A study of Rattus norvegicus with 24 samples.

Results

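The genes described here encode the machinery of the lysosome: the digestive enzymes, the proteins that assist them in the lumen, the proteins of the limiting membrane, the V-type ATPase that acidifies it and the transcription factor Tfeb. Members were chosen by name, as probe sets of the rat array whose platform annotation carried 1 of 41 gene symbols, with 1 probe set per gene, the one with the highest mean over the arrays. Of the 41 genes, 40 had a probe set, and 38 passed a filter on low values, out of 8737 genes that passed it on the whole array. Npc1, the membrane partner of Npc2, had no probe set under that symbol. Ctsc, an aminopeptidase, and Cd68, a membrane protein of phagocytes, had a probe set whose mean log2 level was 2.70 and 1.49 on these arrays, and both were below the filter. The 38 tested members were 18 of 19 hydrolases, 3 of 3 lumenal accessory proteins, 7 of 9 membrane proteins, Tfeb and 9 of 9 proton pump genes.

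Total RNA came from the microdissected dentate gyrus, a field of the hippocampus, of male Long-Evans rats, with 1 array per labelled biological replicate. Aged impaired rats, 24 to 26 months old, learned the hidden platform of the Morris water maze less well than young rats (7 arrays). Aged unimpaired rats of the same age range scored within the young range (6 arrays), and young rats were 6 months old (8 arrays). No group was treated, tissue was taken 2 weeks after testing, and the comparisons ask how lysosomal transcripts differ with age and with the learning of aged rats.

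Lysosomes break down protein, glycogen, glycolipid and cholesterol ester that reach them by endocytosis and autophagy, and their hydrolases work at the low pH that the proton pump maintains. Inherited loss of many of these enzymes causes storage disease of neurons, while microglia, the phagocytes of brain tissue, are rich in lysosomes. Tfeb binds a palindrome in the promoters of many lysosomal genes, known as the CLEAR element, and raises their transcription together.

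The promoters are shown because many lysosomal genes are known targets of a shared factor, Tfeb. The promoters of the genes that rose in these rats can also be set beside one that carries the Tfeb motif several times. RefSeq sequences of the GRCr8 assembly, from 250 bases before to 50 bases after a transcript start, were given for 35 of the 41 members. The searched motifs were the core CACGTG and the longer CACGTGAC, whose other strand reads GTCACGTG. Every CACGTGAC also holds the core. Capitals mark CACGTGAC on either strand, and each sequence runs 5′ to 3′ on the strand of its gene. Gaa lies on chr10:105028106-105045365 (plus strand), Ctsz on chr3:183643077-183653847, Npc2 on chr6:110128325-110149245 and Lamp1 on chr16:83058131-83082843 (minus strand for these 3). The windows shown are chr10:105028105-105028404 for Gaa, chr3:183653798-183654097 for Ctsz, chr6:110149196-110149495 for Npc2 and chr16:83075014-83075313 for Lamp1. The listed starts of Gaa and Lamp1 lie inside the annotated genes.
Gaa: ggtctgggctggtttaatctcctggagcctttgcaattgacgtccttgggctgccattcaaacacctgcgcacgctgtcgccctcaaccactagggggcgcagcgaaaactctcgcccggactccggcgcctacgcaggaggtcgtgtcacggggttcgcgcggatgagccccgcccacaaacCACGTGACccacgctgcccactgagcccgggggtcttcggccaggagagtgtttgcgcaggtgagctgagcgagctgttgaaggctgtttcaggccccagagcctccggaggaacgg
Ctsz: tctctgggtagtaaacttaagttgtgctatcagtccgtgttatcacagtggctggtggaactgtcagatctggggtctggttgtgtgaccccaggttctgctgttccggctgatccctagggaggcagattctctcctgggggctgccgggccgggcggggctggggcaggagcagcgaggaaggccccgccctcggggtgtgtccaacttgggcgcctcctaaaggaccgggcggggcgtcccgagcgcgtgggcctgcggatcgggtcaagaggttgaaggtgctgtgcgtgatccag
Npc2: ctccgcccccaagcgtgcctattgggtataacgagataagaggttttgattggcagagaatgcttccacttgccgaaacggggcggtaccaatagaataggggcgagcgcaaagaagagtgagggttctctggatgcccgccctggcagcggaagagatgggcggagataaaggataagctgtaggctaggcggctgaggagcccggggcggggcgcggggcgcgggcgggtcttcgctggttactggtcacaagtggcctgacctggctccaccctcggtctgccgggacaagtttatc
Lamp1: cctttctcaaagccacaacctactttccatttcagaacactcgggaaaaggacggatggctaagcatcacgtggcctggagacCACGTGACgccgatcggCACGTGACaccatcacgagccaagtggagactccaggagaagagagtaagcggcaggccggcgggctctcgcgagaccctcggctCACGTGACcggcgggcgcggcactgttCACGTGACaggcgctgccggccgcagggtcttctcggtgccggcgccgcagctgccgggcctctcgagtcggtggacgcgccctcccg

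Gaa holds CACGTGAC once and Lamp1 holds it 4 times, while Ctsz and Npc2 hold it in neither strand of these windows. Among the 35 member promoters 8 held the motif (22.9%), against 2.02% of 27457 promoters, 1 per gene, and 4.24% of the 7355 promoters of genes that passed the filter. The core was found in 10 members (28.6%), against 6.65% and 10.1%. The element is already known from promoters of lysosomal genes, so higher shares among members could be foreseen and are no result about these rats. The 30-base windows of the other 6 members with the motif are given to show its neighbourhood, with 1 of the 2 matches each for Ctsd and Mcoln1.
Ctsd, chr1:206968813-206968842: cgcccgcgtctCACGTGACccgttgagggg
Cln3, chr1:190597951-190597980: ccacgggtactGTCACGTGatccccaacct
Glb1, chr8:122963605-122963634: gcggctccggaGTCACGTGgcctgcagagg
Mcoln1, chr12:6358223-6358252: gcgtcaagcttGTCACGTGttcgacccagg
Atp6v0d1, chr19:50357284-50357313: gccccattgtgGTCACGTGagatgcagtgc
Atp6v0e1, chr10:17007116-17007145: ttcgcgcgccgGTCACGTGagcctctgttg

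All 8 genes with the motif passed the filter, and their log2 differences between all aged and young rats ran between -0.08 (Mcoln1) and 0.18 (Glb1) with a median of 0.11. For the 24 tested members whose windows lack it, the differences ran between -0.11 (Tpp1) and 0.67 (Ctsz) with a median of 0.05. Members with positive differences and Mcoln1, with a negative one, thus held the motif, and both genes with the largest differences, Ctsz and Npc2, lacked it.

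The medians of the arrays, 3.77 to 3.84 as log2 levels, were close, and arrays correlated with each other at 0.995 to 0.998 over all 31099 probe sets. Granule neuron markers were present, with mean log2 levels of 10.81 for Prox1, 11.31 for Calb1 and 11.23 for Rbfox3. Some arrays stood apart in other cell markers. Of 11 meningeal markers on the array 1, Igf2, passed the filter, and the mean log2 level of the 11 was 4.40, 4.06 and 3.50 on impaired replicates 2, 3 and 7. Unimpaired arrays had means of 3.08 to 3.17. Young replicate 5 had 3.50, and the remaining young arrays had 3.12 to 3.30. Impaired replicate 2 was also the highest of the 7 impaired arrays in 25 of the 38 lysosomal genes. Of 6 choroid plexus markers on the array only Ttr passed the filter. Impaired replicates 7 and 3 had Ttr log2 levels of 10.09 and 7.28, unimpaired replicate 3 had 9.43 and young replicate 2 had 10.78. All other arrays lay between 4.11 and 5.49. Results are therefore also given without the 4 arrays high in meningeal markers and, as a choice made after the values were seen, without the 4 arrays high in Ttr.

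**Figure D1:**
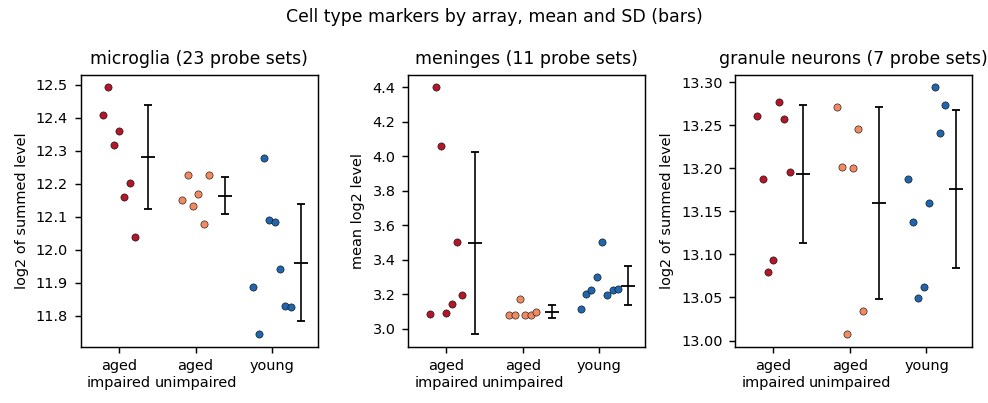
Levels of cell type markers on each array (points), with the group mean and SD (bars), on the log2 scale; n = 7 aged impaired, 6 aged unimpaired and 8 young arrays. Microglial sums lie higher in both aged groups than in most young arrays, impaired replicates 2 and 3 have the highest meningeal means (4.40 and 4.06), and the groups overlap in granule neuron markers.

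Between all aged and young rats, 2 lysosomal genes rose, the protease gene Ctsz and the cholesterol carrier gene Npc2, and 0 of the 38 fell (limma, adjusted p below 0.05 over all probe sets tested). Over all 15177 probe sets 1.11% passed in either direction, with 0.402% higher and 0.705% lower. In impaired rats Ctsz, Npc2 and the glycosidase gene Gaa rose against young rats and 0 fell, with 0.514% of all probe sets passing in either direction, 0.31% higher and 0.204% lower. In unimpaired rats 0 of 38 passed (of all probe sets 1.13%, 0.198% higher and 0.936% lower), with 4 higher and 2 lower at an unadjusted p below 0.05, a threshold that 17% of all probe sets passed. Both comparisons use the same young arrays. Impaired minus unimpaired gave 0 calls among members and 0 among all probe sets (0%), with 8 members higher at an unadjusted p below 0.05 in limma and 14.5% of all probe sets (2199) below that p on either side.

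By sign alone, 28 of 38 members were positive in all aged against young rats (median log2 difference 0.06), where 43.2% of all probe sets were (median -0.01). In impaired against young rats 35 of 38 were positive (median 0.10), where 55.2% of all probe sets were (median 0.01). In unimpaired against young rats 21 of 38 were positive (median 0.01), where 34% of all probe sets were (median -0.04). Hydrolases stood at 18 of 18 positive in impaired rats, with a median of 0.12, and at 13 of 18 in unimpaired rats, with a median of 0.05. Membrane proteins stood at 5 of 7 (0.13) in impaired and 4 of 7 (0.03) in unimpaired rats, and lumenal proteins at 3 of 3 in both. Pump genes stood at 9 of 9 in impaired rats with a median of 0.04. In unimpaired rats they stood at 1 of 9 with a median of -0.03, which turned to 0.03 with median centring and 0.02 with quantile normalization. With any 1 array left out, positive pump genes numbered 6 to 9 in impaired and 1 to 5 in unimpaired rats. Among 9 other tested pump genes that were not members, the contrast was smaller. Of these, 6 were positive in impaired (median 0.02) and 5 in unimpaired rats (median 0.0047). Positive hydrolases in impaired rats numbered 15 of 18 without the 4 arrays with high meningeal markers, 17 of 18 without the arrays high in Ttr, 14 of 18 with the microglial marker mean as a covariate and at least 17 when any 1 array was left out.

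**Figure D2:**
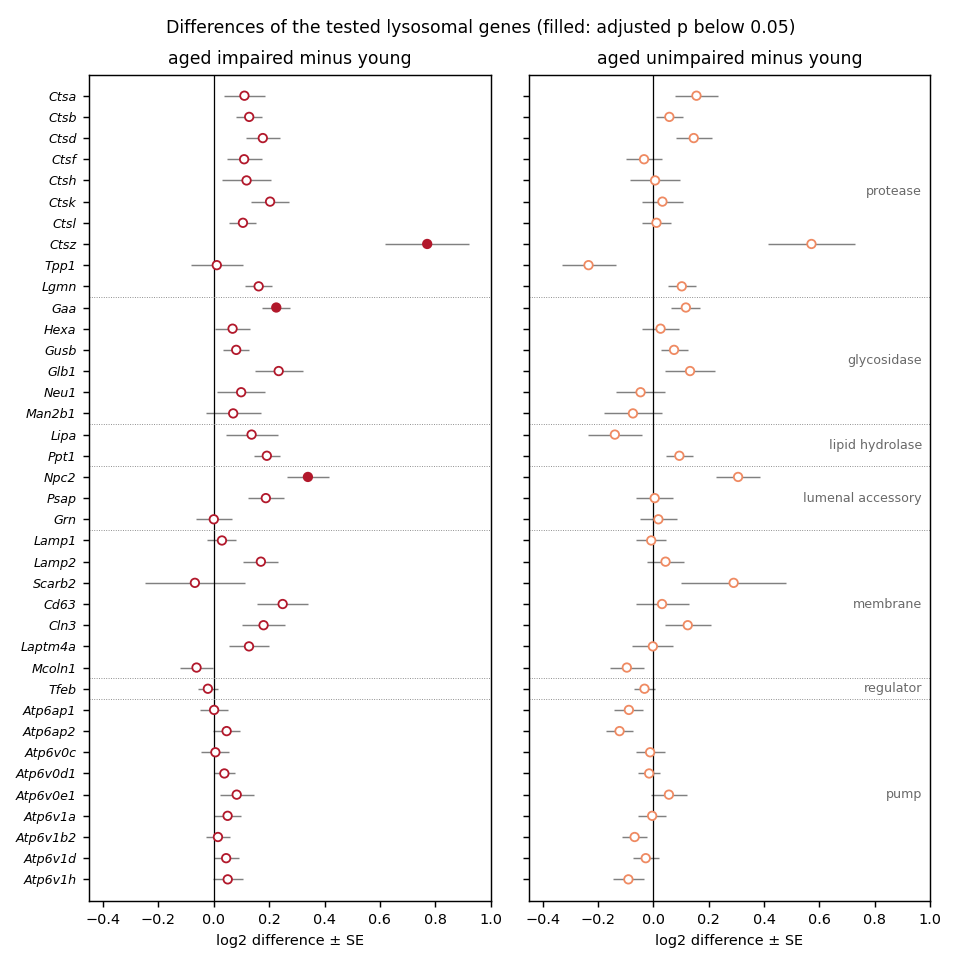
Log2 difference ± SE of each tested lysosomal gene from young rats, in aged impaired (left) and aged unimpaired rats (right), grouped by role; filled points have an adjusted p below 0.05. Ctsz, Gaa and Npc2 are filled on the left and 0 genes on the right, and pump genes lie near 0 on both sides.

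**Figure D3:**
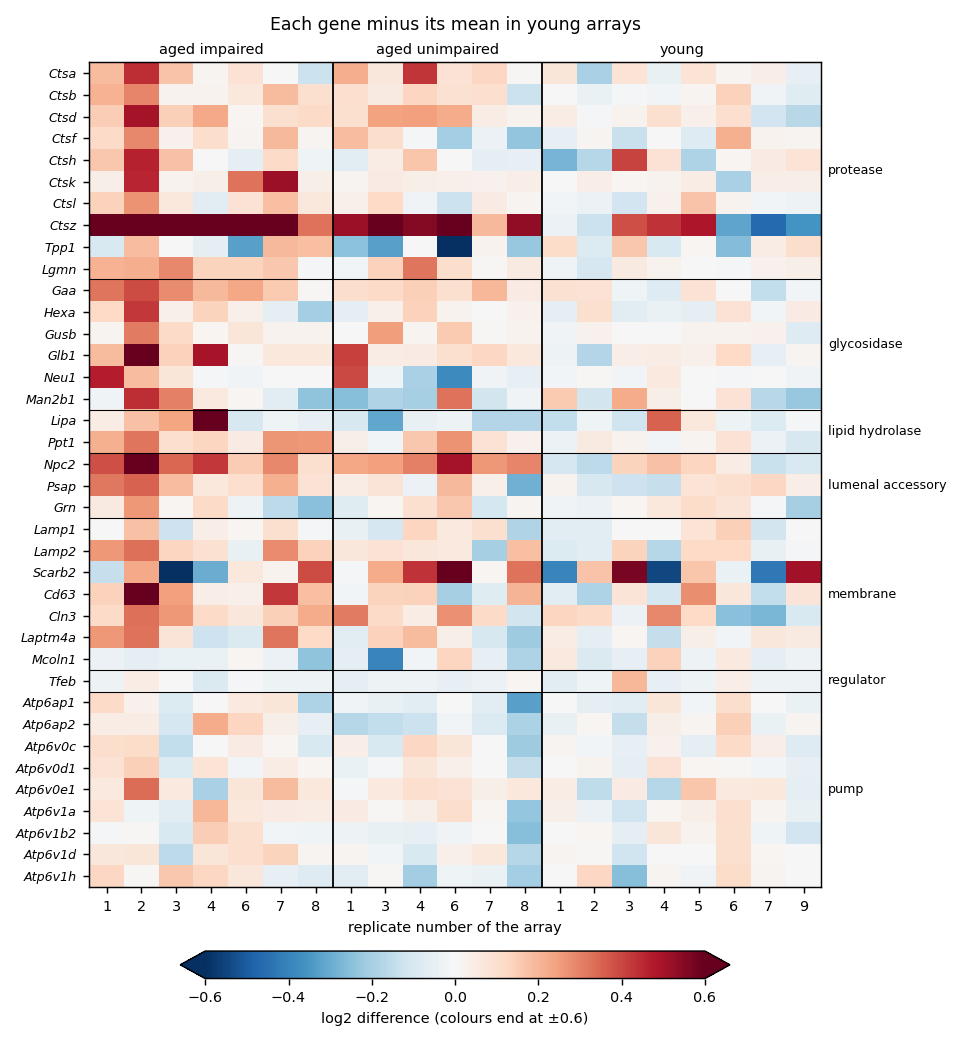
Each tested gene minus its mean over the 8 young arrays, on the log2 scale, for each array; columns are arrays by group and replicate number, rows are genes by role, and colours end at ±0.6. The Ctsz and Npc2 rows are above the young mean on all 13 aged arrays, and impaired replicate 2 is high across the hydrolases.

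Among the proteases, Ctsz, which encodes the carboxypeptidase cathepsin Z, had the largest difference of all members. Its log2 levels had a low of 5.86, a median of 6.30 and a high of 6.60 in impaired rats, against 5.73, 6.08 and 6.52 in unimpaired rats and 5.07, 5.46 and 6.02 in young rats. All aged arrays but impaired replicate 8 and unimpaired replicate 7 lay above every young array, and young replicates 3, 4 and 5 formed the upper end of the young range. Ctsz rose by 0.67 ± 0.13 (SE) in all aged rats, a 1.59-fold higher level (limma adjusted p = 0.0139), and was above the young mean on 13 of 13 aged arrays. In impaired rats it rose by 0.77 ± 0.15, or 1.71-fold (adjusted p = 0.024), and in unimpaired rats it was 0.57 ± 0.16 higher, short of the threshold (adjusted p = 0.0751). Without impaired replicate 2 or 3, or young replicate 6 or 9, the adjusted p in impaired rats was 0.0511 to 0.063, and the difference 0.72 to 0.73.

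Lgmn, the gene of the asparaginyl endopeptidase legumain, which activates other lysosomal proteases, had levels of 9.30, 9.47 and 9.59 in impaired, 9.29, 9.38 and 9.62 in unimpaired and 9.20, 9.31 and 9.36 in young rats (lowest, median, highest). Every impaired array except replicate 8 was above all young arrays, as were 4 of 6 unimpaired arrays. The log2 difference was 0.16 ± 0.05 in impaired rats (adjusted p = 0.135) and 0.10 ± 0.05 in unimpaired rats (adjusted p = 0.302).

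Ctsd, the aspartic protease cathepsin D, lay at 10.06, 10.19 and 10.55 in impaired, 10.07, 10.21 and 10.30 in unimpaired and 9.88, 10.08 and 10.15 in young rats. Impaired replicate 2 was alone at the top, and the lowest arrays of both aged groups lay inside the young range. Its difference was 0.18 ± 0.06 in impaired (adjusted p = 0.221) and 0.15 ± 0.07 in unimpaired rats (adjusted p = 0.261), and all 13 aged arrays were above the young mean. Ctsb, a cysteine protease, lay at 11.95, 12.03 and 12.22 in impaired, 11.80, 12.02 and 12.06 in unimpaired and 11.85, 11.92 and 12.07 in young rats. The groups overlapped, with 3 impaired and 0 unimpaired arrays above every young array. Its difference was 0.13 ± 0.05 in impaired (adjusted p = 0.243) and 0.06 ± 0.05 in unimpaired rats (adjusted p = 0.577).

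The other 6 tested proteases had differences in all aged rats between -0.11 for Tpp1, a tripeptidyl peptidase, and 0.13 for Ctsa, the protective protein of a glycosidase complex. Between these lay Ctsk at 0.12, Ctsh at 0.06, Ctsl at 0.06 and Ctsf at 0.04, all of them cysteine cathepsins, and 0 of the 6 passed the test in any comparison. Ctsk lay near 5.81 on most arrays of all groups and was higher on impaired replicates 2, 6 and 7 (6.23, 6.10 and 6.29). Tpp1 was 0.23 lower on the log2 scale in unimpaired rats, written -0.23 ± 0.10 (adjusted p = 0.227), and 0.01 ± 0.09 in impaired rats. A further probe set of Ctsl had a difference of 0.0052 in all aged rats.

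**Figure D4:**
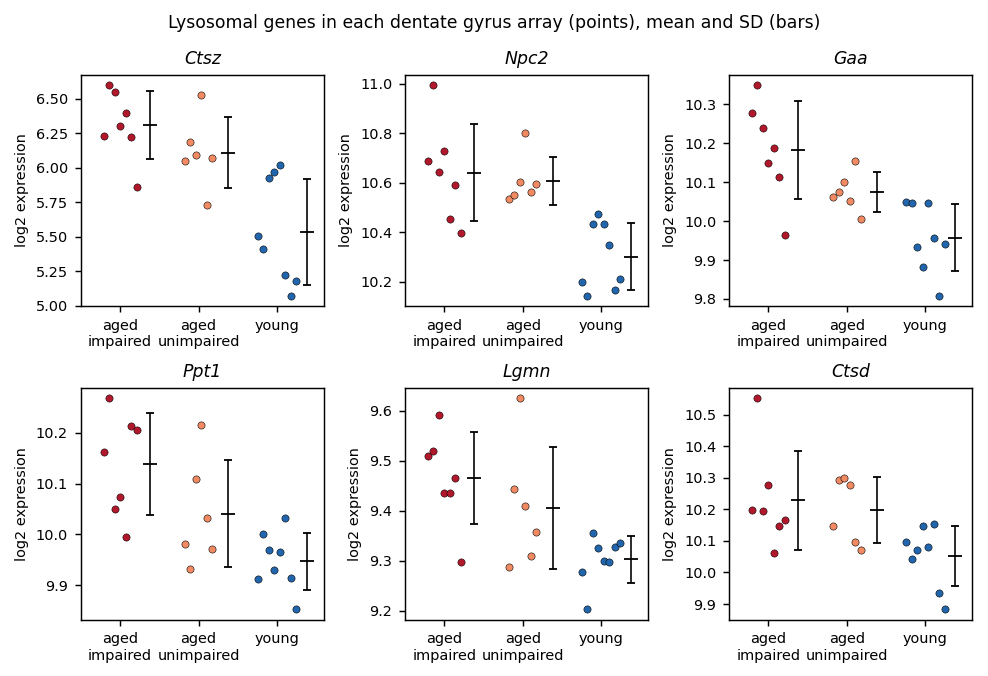
Log2 levels of 6 hydrolase and lumenal genes on each array (points) with the group mean and SD (bars) for 7 aged impaired, 6 aged unimpaired and 8 young rats. For Npc2 all 6 unimpaired arrays lie above all young arrays, and for Ctsz and Gaa 6 of 7 impaired arrays do.

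Among the glycosidases, Gaa, the acid alpha-glucosidase that degrades lysosomal glycogen, had levels of 9.96, 10.19 and 10.35 in impaired, 10.01, 10.07 and 10.16 in unimpaired and 9.81, 9.95 and 10.05 in young rats. In each aged group replicate 8 was the lowest and the only array within the young range. Gaa rose by 0.23 ± 0.05 in impaired rats, or 1.17-fold (adjusted p = 0.0459), and differed by 0.12 ± 0.05 in unimpaired rats (adjusted p = 0.262) and by 0.17 ± 0.04 in all aged rats (adjusted p = 0.0584). The other Gaa probe set, with a mean level of 8.21, differed by 0.15 ± 0.10 in impaired rats (adjusted p = 0.584), so the call belongs to 1 of the 2 probe sets. It was kept in 4 of 21 fits that left out 1 array.

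Glb1, the beta-galactosidase of ganglioside breakdown, lay at 6.10, 6.23 and 6.78 in impaired, 6.14, 6.18 and 6.51 in unimpaired and 5.92, 6.12 and 6.22 in young rats. Impaired replicates 2 and 4 and unimpaired replicate 1 stood above the rest, and the groups overlapped, with impaired replicate 6 below the young median. The difference was 0.23 ± 0.09 in impaired (adjusted p = 0.241) and 0.13 ± 0.09 in unimpaired rats (adjusted p = 0.471). Gusb, the beta-glucuronidase of glycosaminoglycan breakdown, had medians of 5.49 in impaired, 5.48 in unimpaired and 5.48 in young rats, with ranges of 5.48 to 5.78, 5.47 to 5.72 and 5.39 to 5.49. Its medians thus lay within 0.01 of each other, and a few aged arrays carried the difference of 0.08 ± 0.05 in impaired (adjusted p = 0.514) and 0.07 ± 0.05 in unimpaired rats (adjusted p = 0.452). Hexa, Neu1 and Man2b1, which cleave hexosamine, sialic acid and mannose from glycans, differed by 0.05, 0.03 and -0.0018 in all aged rats and did not pass.

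Of the lipid hydrolases, Ppt1, which removes fatty acids from proteins and whose loss causes a neuronal ceroid lipofuscinosis, lay at 9.99, 10.16 and 10.27 in impaired, 9.93, 10.01 and 10.22 in unimpaired and 9.85, 9.95 and 10.03 in young rats. Impaired arrays other than replicate 6 exceeded all young arrays, and unimpaired arrays were spread over both ranges. The difference of 0.19 ± 0.05 in impaired rats had an adjusted p of 0.0715, just short of the threshold in limma, and that of 0.09 ± 0.05 in unimpaired rats had an adjusted p of 0.344. Lipa, the acid lipase that frees cholesterol and fatty acids from lipoprotein lipids, lay at 6.57, 6.71 and 7.33 in impaired, 6.35, 6.53 and 6.63 in unimpaired and 6.51, 6.63 and 7.01 in young rats. Impaired replicate 4 and young replicate 4 were the highest of their groups. Lipa differed by 0.14 ± 0.09 in impaired (adjusted p = 0.606) and -0.14 ± 0.10 in unimpaired rats (adjusted p = 0.492), and by 0.28 ± 0.10 between impaired and unimpaired rats (adjusted p = 0.235).

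The lumenal protein Npc2, which takes up cholesterol in the lysosome and passes it to the membrane, had levels of 10.39, 10.64 and 10.99 in impaired, 10.53, 10.58 and 10.80 in unimpaired and 10.14, 10.28 and 10.47 in young rats. All 6 unimpaired arrays lay above all 8 young arrays, a separation shown by 0.105% of all probe sets, while impaired replicates 6 and 8 lay inside the young range. Npc2 rose by 0.32 ± 0.07 in all aged rats, or 1.25-fold (adjusted p = 0.0177), on 13 of 13 arrays. It rose by 0.34 ± 0.08 in impaired rats, or 1.27-fold (adjusted p = 0.0459), and was 0.31 ± 0.08 higher in unimpaired rats (adjusted p = 0.063). The call in impaired rats held in 5 of 21 fits that left out 1 array, and that in all aged rats in 21 of 21. The unimpaired difference had an adjusted p = 0.0332 with median centring and 0.0337 without impaired replicate 2.

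Psap, the precursor of the saposins that present lipids to hydrolases, lay at 11.90, 12.02 and 12.19 in impaired, 11.55, 11.87 and 12.03 in unimpaired and 11.69, 11.86 and 11.96 in young rats. Impaired arrays occupied the upper part of the joint range, and unimpaired and young arrays overlapped throughout. Psap differed by 0.19 ± 0.06 from young in impaired rats (adjusted p = 0.207), by 0.0049 ± 0.07 in unimpaired rats (adjusted p = 0.979) and by 0.18 ± 0.07 between impaired and unimpaired rats (adjusted p = 0.241). Grn, the gene of progranulin, a lysosomal protein precursor whose deficiency causes dementia in humans, had medians of 8.50 in impaired, 8.50 in unimpaired and 8.49 in young rats. Its ranges, 8.24 to 8.75, 8.38 to 8.65 and 8.29 to 8.60, overlapped fully, and the difference in all aged rats was 0.01 ± 0.06 (adjusted p = 0.958).

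Among membrane proteins 0 of 7 passed in any comparison. Cd63, a tetraspanin of late endosomes and lysosomes, lay at 9.94, 10.09 and 10.59 in impaired, 9.70, 9.97 and 10.11 in unimpaired and 9.72, 9.91 and 10.19 in young rats. Impaired replicates 2 and 7, both among the arrays with high meningeal markers, were above all young arrays, and the rest overlapped. Its difference was 0.25 ± 0.09 in impaired (adjusted p = 0.241) and 0.03 ± 0.10 in unimpaired rats (adjusted p = 0.902). Lamp2, a heavily glycosylated lining protein with a role in autophagy, lay at 10.50, 10.69 and 10.87 in impaired, 10.35, 10.61 and 10.73 in unimpaired and 10.37, 10.52 and 10.68 in young rats. Unimpaired replicate 7 was the lowest of all arrays, and 4 impaired arrays exceeded every young one. Lamp2 differed by 0.17 ± 0.06 in impaired (adjusted p = 0.246) and 0.04 ± 0.07 in unimpaired rats (adjusted p = 0.783). The other Lamp2 probe set, with a mean level of 9.25, differed by 0.07 ± 0.07 in impaired rats (limma adjusted p = 0.748). In unimpaired rats it had the opposite sign, at -0.04 (limma adjusted p = 0.805).

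Cln3, the membrane protein of juvenile neuronal ceroid lipofuscinosis, lay at 5.74, 5.82 and 6.01 in impaired, 5.56, 5.79 and 5.98 in unimpaired and 5.40, 5.71 and 5.96 in young rats. The 3 ranges overlapped, with young replicates 6 and 7 the lowest. The difference was 0.18 ± 0.08 in impaired (adjusted p = 0.347) and 0.12 ± 0.08 in unimpaired rats (adjusted p = 0.458). Mcoln1, the cation channel that releases lysosomal calcium, was the only tested membrane gene with a negative sign in all aged rats, at -0.08 ± 0.05 (adjusted p = 0.507). It had medians of 8.19 in impaired, 8.18 in unimpaired and 8.20 in young rats, and impaired replicate 8 and unimpaired replicate 3 were the lowest, at 7.99 and 7.84. Lamp1, whose promoter carries the motif 4 times, differed by 0.01 ± 0.05 in all aged rats. Laptm4a, a small membrane protein, and Scarb2, the receptor that delivers glucocerebrosidase, differed by 0.06 ± 0.06 and 0.11 ± 0.16 in all aged rats. For Scarb2 this value joins opposite signs, -0.07 in impaired and 0.29 in unimpaired rats. Its difference between impaired and unimpaired rats, -0.36, was the largest in size of all tested members and opposite in sign to most. Young arrays of Scarb2 were spread between 5.15 and 6.26.

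Tfeb had levels of 4.56, 4.62 and 4.69 in impaired, 4.59, 4.62 and 4.66 in unimpaired and 4.58, 4.62 and 4.85 in young rats. The medians were equal to 2 decimals and just above the filter level of 4. Most arrays lay near 4.62, and the value 4.6189 recurred in all 3 groups. GCRMA draws low probe sets to similar values, so this probe set may not show a change in Tfeb. The difference was -0.02 ± 0.04 in impaired (adjusted p = 0.866) and -0.03 ± 0.04 in unimpaired rats (adjusted p = 0.709), where median centring turned it to 0.02.

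Of the proton pump genes 0 of 9 passed in any comparison, and the differences in impaired rats ran between 0.0012 and 0.08 on the log2 scale. Atp6v0e1, a small subunit of the membrane sector, had the largest, with levels of 7.86, 8.11 and 8.39 in impaired, 8.04, 8.11 and 8.15 in unimpaired and 7.88, 8.10 and 8.22 in young rats. The medians were close and the ranges overlapped, and the difference was 0.08 ± 0.06 in impaired (adjusted p = 0.639) and 0.06 ± 0.06 in unimpaired rats (adjusted p = 0.699). Atp6ap1, an accessory subunit that guides assembly, lay at 11.93, 12.14 and 12.22 in impaired, 11.78, 12.05 and 12.11 in unimpaired and 12.04, 12.10 and 12.21 in young rats. Its difference was 0.0012 ± 0.05 in impaired (adjusted p = 0.997) and -0.09 ± 0.05 in unimpaired rats (adjusted p = 0.402), where replicate 8 alone was far below the others. Atp6v1b2, a subunit of the ATP-hydrolysing sector, lay at 11.82, 11.90 and 12.05 in impaired, 11.65, 11.87 and 11.91 in unimpaired and 11.79, 11.91 and 12.00 in young rats. The same unimpaired replicate was the lowest of all arrays, and the difference was 0.02 ± 0.04 in impaired (adjusted p = 0.934) and -0.07 ± 0.05 in unimpaired rats (adjusted p = 0.472).

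Atp6ap2, the accessory subunit also known as the prorenin receptor, had the smallest p of all members between impaired and unimpaired rats. Its levels were 11.82, 11.97 and 12.15 in impaired, 11.73, 11.79 and 11.91 in unimpaired and 11.78, 11.94 and 12.07 in young rats. All 7 impaired arrays were above the unimpaired mean, the ranges of the aged groups overlapped, and young rats lay nearer the impaired ones. The difference between impaired and unimpaired rats was 0.17 ± 0.05 with a limma adjusted p of 0.181, where 0.129 was the smallest of all probe sets. Against young rats it was 0.05 ± 0.05 in impaired (adjusted p = 0.748) and -0.12 ± 0.05 in unimpaired rats (adjusted p = 0.212). The further probe sets of Atp6v1a and Atp6v1b2 had the opposite sign to those used, at -0.11 and 0.06 in all aged rats, while that of Atp6ap2 had the same sign (-0.03). The remaining subunits Atp6v0c, Atp6v0d1, Atp6v1a, Atp6v1d and Atp6v1h differed by -0.02 to 0.02 in all aged rats.

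Between impaired and unimpaired rats 17 of 18 hydrolases, 6 of 7 membrane and 9 of 9 pump genes were positive, against 72.4% of all probe sets, whose median was 0.05. Class medians were 0.11 for hydrolases, 0.06 for membrane proteins and 0.07 for the pump. With median centring, which brought the median of all probe sets to -0.0092, these counts were 13 of 18, 3 of 7 and 5 of 9, and the membrane median turned to -0.0051. With quantile normalization they were 12 of 18, 4 of 7 and 6 of 9. Without the 4 arrays with high meningeal markers they were 14 of 18, 6 of 7 and 8 of 9.

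As a mean over its genes minus the young mean, the hydrolase class averaged 0.17 ± 0.11 (SD, n = 7) in impaired and 0.06 ± 0.04 (n = 6) in unimpaired rats, with an SD of 0.04 over the 8 young arrays. All impaired arrays were above 0, the highest being replicate 2 at 0.40 and the lowest 0.03, and 5 of 6 unimpaired arrays were. Membrane proteins averaged 0.09 ± 0.12 in impaired and 0.05 ± 0.08 in unimpaired rats, with a young SD of 0.09. These SDs describe single arrays, and differences between the class means of the groups were not tested. The pump averaged 0.04 ± 0.06 in impaired and -0.04 ± 0.07 in unimpaired rats, with a young SD of 0.05. Hydrolases and the pump thus differed in size in impaired rats, a contrast that was described by these values and not tested.

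**Figure D5:**
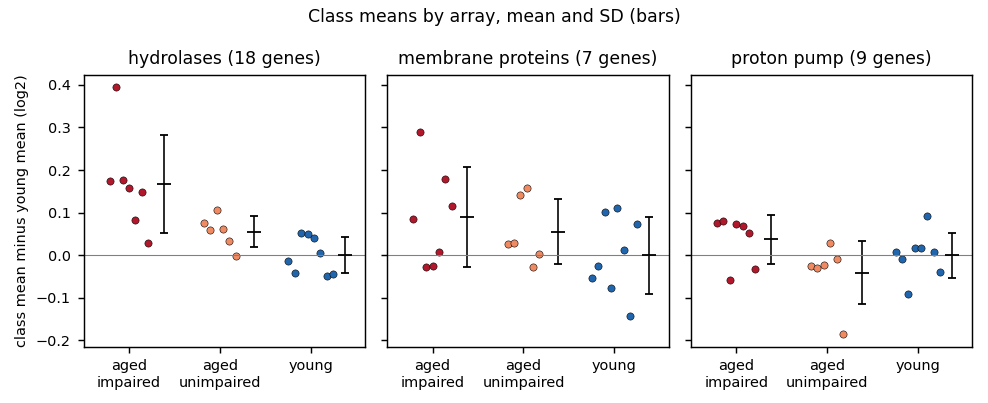
Mean of each class on each array minus the young mean, on the log2 scale, with the group mean and SD (bars), for 18 hydrolases, 7 membrane proteins and 9 pump genes. All 7 impaired arrays lie above 0 for hydrolases, with replicate 2 at 0.40, and unimpaired replicate 8 is the lowest for the pump at -0.19.

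Microglial markers moved in the same direction as the hydrolases. Of 26 listed, 15 passed the filter. In all aged rats 14 of 15 were positive, and C1qa (0.45), Fcer1g (0.38) and Mpeg1 (0.49) rose. Of all probe sets 43.2% were positive there and 0.402% were called higher. In impaired rats 14 of 15 markers were positive and Mpeg1 rose (0.64), where 55.2% of all probe sets were positive and 0.31% called higher. In unimpaired rats 12 of 15 were positive and C1qa rose (0.49), where 34% of all probe sets were positive and 0.198% called higher. The log2 of their summed level ran between 12.0 and 12.5 in impaired, 12.1 and 12.2 in unimpaired and 11.7 and 12.3 in young rats, while Itgam, Cx3cr1, Ptprc, Ly86, Fcgr2b, Fcgr3a, Mrc1 and Cd163 were below the filter. Markers of other cell types also differed between groups. Between impaired and unimpaired rats 72.4% of all probe sets were positive (median 0.05). Of 7 tested oligodendrocyte markers 7 were higher in impaired than in unimpaired rats by sign (median 0.21, 0 called). Against young rats Cldn11 (-0.64) and Mal (-0.63) fell in unimpaired rats, where 0.936% of all probe sets were called lower. The log2 sums of that list ran between 14.2 and 14.7 in impaired, 14.3 and 14.5 in unimpaired and 14.4 and 14.6 in young rats. Of 7 tested endothelial markers 7 were positive between impaired and unimpaired rats (median 0.16, 0 called), and Tek (-0.51) and Slco1a4 (-0.40) fell in unimpaired against young rats. Endothelial log2 sums ran between 11.02 and 11.58 in impaired, 11.08 and 11.13 in unimpaired and 11.04 and 11.48 in young rats. Of 8 tested astrocyte markers 2 were positive in all aged rats and Gfap rose (0.40, limma adjusted p = 0.0154). Of 7 tested granule neuron markers 2 were positive and Pdyn rose (0.36). The shares of all probe sets in that comparison were 43.2% positive and 0.402% called higher. In bulk tissue, more cells of a type and more RNA per cell cannot be told apart.

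With the microglial marker mean as a covariate, Ctsz differed by 0.35 in all aged (adjusted p = 0.201) and 0.38 in impaired rats (adjusted p = 0.321), and Npc2 by 0.14 (adjusted p = 0.222) and 0.12 (adjusted p = 0.492). Gaa differed by 0.17 in impaired rats (adjusted p = 0.332), so none of the member calls remained in that limma fit, where all calls over the array numbered 46 in all aged and 12 in impaired rats. Without the 4 arrays with high meningeal markers Ctsz and Npc2 kept their calls in all aged rats, at 0.68 (adjusted p = 0.036) and 0.30 (adjusted p = 0.0425). In impaired rats, then 4 arrays, Ctsz differed by 0.73 (adjusted p = 0.148), Npc2 by 0.28 (adjusted p = 0.235) and Gaa by 0.20 (adjusted p = 0.25). Without the 4 arrays with high Ttr 0 members passed in any comparison against young rats. Ctsz then differed by 0.63 (adjusted p = 0.102) and Npc2 by 0.31 (adjusted p = 0.104) in all aged rats, with 43 calls over the array. In impaired rats, then 5 arrays, Ctsz differed by 0.72 (adjusted p = 0.248), Npc2 by 0.33 (adjusted p = 0.295) and Gaa by 0.24 (adjusted p = 0.233). The part of these cell types in the lysosomal differences was not tested.

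Other lysosomal genes were read from a list of 108, of which 87 had a probe set and 71 passed the filter. In all aged rats 1 rose, 1 fell and 40 of 71 were positive (median 0.0036), and in impaired rats 51 of 71 were positive (median 0.05), 0 rose and 1 fell. In unimpaired rats 33 of 71 were positive (median -0.01), 0 rose and 1 fell. Of all probe sets 43.2% were positive in all aged, 55.2% in impaired and 34% in unimpaired rats. Those called higher were 0.402%, 0.31% and 0.198% in the same order, and those called lower 0.705%, 0.204% and 0.936%. The 1 call among 71 genes in unimpaired rats was 1.41%, near the share of all probe sets called lower there. The gene that fell was Ggh, the hydrolase that trims glutamate from folates, at 9.00, 9.12 and 9.20 in impaired, 8.88, 9.09 and 9.17 in unimpaired and 9.27, 9.30 and 9.51 in young rats. Every aged array lay below every young array, a separation whose share over all probe sets was not counted. Of all probe sets 0.705% were called lower in all aged rats. Ggh fell by 0.23 ± 0.05 in impaired (adjusted p = 0.0437), by 0.30 ± 0.05 in unimpaired (adjusted p = 0.0128) and by 0.27 ± 0.04 in all aged rats (adjusted p = 0.00476). Its sign was opposite to that of most of the 18 member hydrolases. Of the 24 hydrolases in the further list, 11 were positive in all aged rats (median -0.0023), where 43.2% of all probe sets were. In impaired rats 20 were (median 0.07, all probe sets 55.2%), and in unimpaired rats 10 (median -0.04, all probe sets 34%). The call in impaired rats was kept in 6 of 21 fits that left out 1 array, and those in unimpaired and all aged rats in 21 of 21. With the microglial covariate the difference in all aged rats was -0.25 (adjusted p = 0.0592). With the replicate block the adjusted p was 0.106 in impaired, 0.109 in unimpaired and 0.0649 in all aged rats. Without the arrays high in Ttr Ggh kept its calls in unimpaired and all aged rats (adjusted p = 0.0373 and 0.031) and had an adjusted p of 0.267 in impaired rats.

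Fuca1, the fucosidase of glycoprotein breakdown, lay at 9.26, 9.28 and 9.69 in impaired, 9.21, 9.29 and 9.46 in unimpaired and 8.97, 9.10 and 9.33 in young rats. It was above the young mean on 13 of 13 aged arrays, with impaired replicate 2 the highest. Fuca1 rose by 0.23 ± 0.06 in all aged rats (adjusted p = 0.0495), a call kept in 3 of 21 fits that left out 1 array and lost without the arrays high in Ttr (adjusted p = 0.145), and differed by 0.25 ± 0.06 in impaired (adjusted p = 0.083) and 0.21 ± 0.07 in unimpaired rats (adjusted p = 0.129). Of the other membrane and sorting genes 0 of 26 passed. The membrane protein gene Laptm4b differed by 0.24 ± 0.06 in all aged rats (adjusted p = 0.0536), while Gnptg, a subunit of the enzyme that starts the mannose 6-phosphate tag, differed by -0.14 ± 0.05 and Igf2r, a receptor for that tag, by -0.13 ± 0.05. Of 9 further pump genes 0 passed, with Atp6v0a2 at -0.17 ± 0.06, Atp6v0e2 at -0.06 ± 0.05 and the neuronal Atp6v1g2 at 0.04 ± 0.03. Of 12 other regulators 0 passed, with the amino acid sensing GTPase gene Rraga at -0.13 ± 0.04, Flcn, which acts on the Rag GTPases, at 0.13 ± 0.04 and Zkscan3, a repressor of autophagy genes, at -0.16 ± 0.08.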

How the data were processed

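Total RNA from the dentate gyrus of rats was hybridized to Affymetrix whole-genome rat arrays. The deposited values are on the log2 scale, 1 per probe set, and the submitters' processing notes name GCRMA as the authors' summary method; its version is not given in the sources used here. GCRMA draws low probe sets to similar values. Groups follow the labels: of 24 labelled arrays 21 were used, since the labels mark 3 (1 in each group) as dropped in quality control. No hybridization batch is given in the labels, so none was modelled, and p-values measure the spread between arrays labelled as biological replicates. The number of arrays, and not a read depth, limits the precision.

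Of 31099 probe sets 57 are controls, and the others were tested when above a log2 value of 4 on at least 6 arrays (15177). Symbols came from the platform annotation: 20826 probe sets have 1, 436 several and 9780 none. A single limma model (version 3.58.1, R 4.3.3) held all 3 groups, with 18 residual df. Contrasts were each aged group and their mean minus young, and impaired minus unimpaired. Adjustment was by the Benjamini-Hochberg method across the tested probe sets, with a call at an adjusted p below 0.05. Errors after ± are moderated SEs, or SDs where so marked. The fit was tested on simulated data. RefSeq matched 41 of 41 members by symbol.

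Members and lists were chosen with earlier results of these data known. Genes given in full were the called members, the 4 with the smallest p in all aged minus young among proteases, among glycosidases with lipid hydrolases, and among lumenal, membrane and pump genes, Tfeb, and the 3 with the smallest p between the aged groups. Of the other lysosomal lists, called genes or else the 3 with the smallest p were named. Deviations from the group means correlated at r of -0.12 to 0.20 in 17 pairs of same-numbered arrays (median -0.011, 4 above 0.1). In 129 other pairs r was -0.19 to 0.19 (median -0.0036), and 7 arrays correlated best with their own number. These values do not settle whether replicate numbers pair animals or mark a batch.

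Alternatives were no filter, a filter above 6, median centring, quantile normalization, array weights, a variance trend with robust prior, the replicate number as a block, the microglial marker mean as a covariate, the mean of a gene's probe sets, leaving out 4 arrays with high meningeal markers, leaving out each array and, chosen after seeing the data, leaving out the 4 arrays with a Ttr log2 level above 6.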

Additional observations from a re-analysis of the deposited data

Results flagged for a closer look

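Single arrays that stood far from the rest of their group were looked for in 105 combinations of a group and a named gene or class mean, and 19 were found. The limit used would flag about 1 in 20 by chance in independent, normally distributed values. The combinations share arrays, and the class means share genes with them, so that rate need not hold here. Whether 19 exceeds chance was not tested. Among hydrolases, the class mean of impaired replicate 2 was 0.40 above the young mean, with the next array at 0.18, and the same array was highest for Gusb (5.78) and Fuca1 (9.69). Unimpaired replicate 8 was the lowest for the pump class mean (-0.19), Atp6ap1 (11.78), Atp6v1b2 (11.65) and Ctsb (11.80). Other single unimpaired arrays stood apart for Npc2 (10.80, replicate 6), Glb1 (6.51, replicate 1), Lamp2 (10.35, replicate 7) and Zkscan3 (6.73, replicate 4). Impaired replicate 8 was lowest for Mcoln1 (7.99) and Zkscan3 (7.19). In young rats replicate 9 stood apart for Gusb (5.39), Atp6v0a2 (6.41) and Atp6v1g2 (11.03), replicate 6 for Ctsb (12.07), replicate 3 for Tfeb (4.85) and replicate 4 for Lipa (7.01).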

How the results depend on the processing

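Over 32 other settings, 98 results gave 3126 recomputed values. Of these, 2873 were counted as staying in direction and on their side of the threshold and 69 as reversed in sign. All 69 were differences of single genes. Sign changes of class medians were not counted among them, such as that of the pump in unimpaired rats with median centring and quantile normalization. Called members in all aged rats numbered 5 with quantile normalization (Ctsb, Ctsz, Gaa, Npc2 and Ppt1) and 0 with the microglial covariate and without the 4 arrays high in Ttr. In impaired rats they numbered 0 with no filter, with the covariate, without the 4 arrays high in meningeal markers and without those high in Ttr. They numbered 0 to 3 with 1 array left out. In unimpaired rats Npc2 alone passed, 1 call, with median centring, quantile normalization, array weights and without the 4 meningeal arrays, and 0 to 1 passed with 1 array left out. Called probe sets in all aged rats (168) numbered 90 with no filter, 76 with the replicate block, 46 with the covariate, 86 without the 4 meningeal arrays, 43 without the Ttr arrays and 89 to 239 with 1 array left out. In impaired rats (78) they numbered 33 with no filter, 12 with the covariate, 29 and 18 without the meningeal and the Ttr arrays and 36 to 161 with 1 array left out. In unimpaired rats (172) they numbered 67 with no filter, 9 with the block, 83 with the covariate, 95 and 27 without the meningeal and the Ttr arrays and 59 to 219 with 1 array left out, and between the aged groups 0 to 4. With the replicate block, Npc2 in all aged rats had a limma adjusted p of 0.0723. Of 21 arrays 7 correlated best with their own number, and whether these numbers pair animals was not settled.

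Lipa in all aged rats was 0.023 with median centring, 0.011 with quantile normalization, 0.028 with the block, 0.011 and 0.019 without the meningeal and the Ttr arrays and -0.046 to 0.049 with 1 array left out. Grn in impaired rats was -0.0057, -0.0070 and -0.014 with centring, quantile normalization and array weights, -0.14 with the covariate, -0.012 without the meningeal arrays and -0.043 to 0.042 with 1 left out. Grn in all aged rats was -0.0033 with weights, -0.10 with the covariate and -0.019 to 0.030 with 1 left out, and in unimpaired rats -0.067 with the covariate and -0.010 to 0.043 with 1 left out. Atp6ap1 in impaired rats was -0.0046 with centring, -0.010 with quantile normalization, -0.017 with the covariate, -0.0041 and -0.0036 without the meningeal and the Ttr arrays and -0.018 to 0.032 with 1 left out. In unimpaired rats Tfeb was 0.023 with centring, and with the covariate Psap was -0.0019, Lamp2 -0.014 and Cd63 -0.054. Without the Ttr arrays Psap was -0.024 and Cd63 -0.016 there. With 1 array left out Psap was -0.033 to 0.063 and Cd63 -0.0030 to 0.078 in unimpaired rats, Atp6v1b2 -0.0067 to 0.033 and Tfeb -0.032 to 0.0072 in impaired rats, and Tfeb -0.036 to 0.0018 in all aged rats. With the mean of a gene's probe sets Atp6v1b2 was 0.015 and Zkscan3, -0.16 ± 0.08 with 1 probe set, was 0.0081 in all aged rats. The cause was not tested. The class medians of hydrolases, membrane proteins and the pump against young rats moved by less than 1 SD between arrays in every setting. That SD was 0.068, 0.093 and 0.065, larger in size than some of the medians, such as the pump in unimpaired rats (-0.03). A median could change sign within it, as that of the pump did with median centring, so the measure does not show stable medians. With 6 to 8 arrays per group and adjustment over 15177 probe sets, the calls in impaired rats sat close to the threshold.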
